A study of Mus musculus with 13 samples.

Results

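The nonsilencing control time course (Nons) consisted of 4 RNA-seq libraries, 1 for each of days 4, 5, 6 and 7 of differentiation, out of the 13 libraries of the series. They were taken by their sample titles. The cells were a female F1 mouse embryonic stem cell (mESC) line from FVB/NJ dams and CAST/EiJ sires with no engineered allele named in the labels, grown in 2i medium and then weaned into serum-containing DME HiHi medium. On day 2 they were transduced with a virus carrying the nonsilencing short hairpin RNA, on day 3 puromycin selection began, and cells were harvested on the day named. The other libraries were 1 of undifferentiated cells (Day0) and 4 for each of 2 hairpins against the chromatin remodeller subunit Smarcc1 (Smarcc1.6 and Smarcc1.7), from the same cross, with the same days and selection. The question here was how the transcriptome of the control moved from day 4 to day 7, and in which interval. Nothing states whether the days came from 1 culture or from separate ones, and no day had a second library. A slope's p-value therefore weighs the change per day against departure from a straight line, not against the spread between cultures.

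At Day0 the defining mESC genes were present, with the pluripotency genes Pou5f1 and Sox2 at a log2 CPM (read counts scaled to the mapped reads of the library) of 10.24 and 8.89. In 2i, inhibitors of MEK and GSK3 hold mESCs in a naive state in which both X chromosomes of female cells are active. On leaving 2i, cells pass from this naive state through a formative state like the post-implantation epiblast, in which de novo DNA methylation is high and germline genes become silenced, and then take up the fates of gastrulation. Female cells meanwhile upregulate the long non-coding RNA Xist, which coats 1 X chromosome and silences it. Bulk RNA averages over all cells in the dish, so fewer cells of a type and less RNA per cell cannot be told apart.

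The control hairpin defines this arm, so its sequence is given as the study lists it. The capitals mark the 2 arms of 23 bases that pair to form the stem. Neither strand of the arm was found over its whole length in any of 141767 mouse transcripts of GENCODE M21.
Nons hairpin: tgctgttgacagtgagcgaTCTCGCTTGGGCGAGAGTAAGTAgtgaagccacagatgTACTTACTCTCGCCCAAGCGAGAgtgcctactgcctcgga

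Depth in Nons was 59615968 mapped reads on day 4, 46420569 on day 5, 35205304 on day 6 and 29667077 on day 7, and 3 reads corresponded to a log2 CPM of -4.31, -3.95, -3.55 and -3.31. Of 25965 genes in the table, 13234 averaged a log2 CPM of 0 or above in Nons and were tested (497 X-linked, 12724 autosomal). The target of the other hairpins, Smarcc1, had a log2 CPM of 9.10, 8.87, 8.28 and 7.89 in Nons and was itself called as falling, by -0.42 ± 0.08 (SE) per day (limma adjusted p = 0.040).

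Day 6 was examined first, because its reads were distributed over genes differently from those of days 5 and 7. On days 4, 5 and 7, 92.0%, 92.0% and 92.6% of Nons reads were counted in genes, but 86.5% on day 6. Processed pseudogenes, intron-less copies of expressed genes, took 0.405%, 0.449% and 0.445% of reads on days 4, 5 and 7 and 1.56% on day 6. Ribosomal protein genes, which encode the proteins of the ribosome, took 4.83%, 5.79% and 6.71% on the other days and 1.97% on day 6. The Day0 library was like day 6 in these shares, with 86.0% in genes, 1.61% in processed pseudogenes and 1.75% in ribosomal protein genes. The day 6 shift of a gene was therefore defined as its log2 CPM on day 6 minus the mean of days 5 and 7.

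The shift was at least 1 log2 unit upward for 503 genes (3.8% of those tested) and downward for 540 (4.08%). Of 156 processed pseudogenes 101 were shifted upward and 13 downward, with a median shift of 1.77. Of 77 ribosomal protein genes 0 were shifted upward and 65 downward, with a median of -3.09. Of the 12337 other protein-coding genes 348 were shifted upward and 430 downward, and their median was 0.11. Rps27, a small-subunit protein, had 13783, 18357, 16 and 17780 reads on days 4 to 7, a log2 CPM of 7.85, 8.63, -1.14 and 9.23. The pseudogene Rpl13a-ps1 moved the other way, with 20, 21, 6159 and 28 reads. Sumo2, a ubiquitin-like modifier, had 9876, 7745, 56 and 4107 reads. Protein-coding genes for which GENCODE lists a pseudogene named after them were shifted downward in 72 of 212 cases (34.0%) and upward in 0, against 358 (2.95%) and 348 (2.87%) of the 12125 others.

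The hairpin libraries carried the same feature. Of the 101 processed pseudogenes shifted upward in Nons, 95 were shifted upward by at least 1 with each hairpin too, and of the 65 ribosomal protein genes shifted downward, 64 were shifted downward with each. In a limma fit over the 8 hairpin libraries, the contrast of day 6 with days 5 and 7 called 2034 genes as higher (15.4%) and 1268 as lower (9.58%), among them all 65 of those ribosomal protein genes. Among other protein-coding genes the overlap was smaller, with 82 of 348 upward and 236 of 430 downward shifts found with both hairpins. Library preparation or alignment of day 6 and a true change on that day cannot be told apart for a single gene. The counts of shapes below are therefore given with day 6 and from days 4, 5 and 7 alone.

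**Figure D1:**
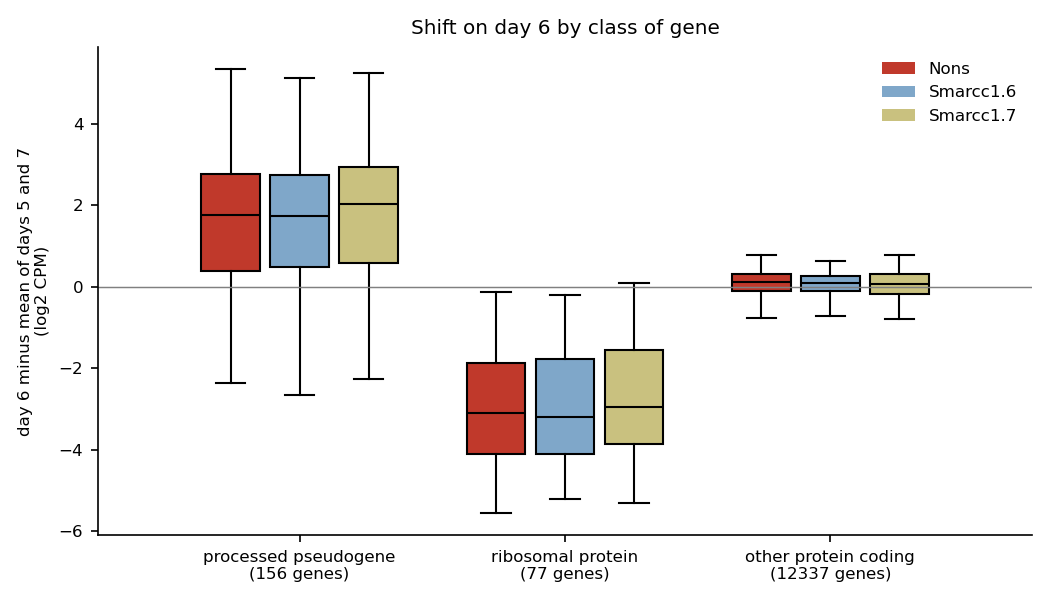
Shift on day 6, the log2 CPM of day 6 minus the mean of days 5 and 7, for each class of gene (x axis) in Nons and in both hairpin series. Boxes span the quartiles with the median as a line, and whiskers reach the 5th and 95th percentiles. In Nons the medians were 1.77 for processed pseudogenes, -3.09 for ribosomal protein genes and 0.11 for other protein-coding genes, and the hairpin series sit beside them.

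Across all genes, those of smooth muscle actin filaments, keratins of simple epithelia, glucose transporters and regulators of the primitive streak were among the genes that rose, and naive pluripotency genes, germline genes and de novo DNA methylation genes were among those that fell. In the limma fit of log2 CPM on day, 968 genes rose (7.31%) and 603 fell (4.56%) at an adjusted p under 0.05, and 1540 of these 1571 genes moved the same way in all 3 steps between days. By size alone, 2869 genes were at least 1 log2 unit higher on day 7 than on day 4 (21.7%) and 1534 at least 1 lower (11.6%). The median change of all genes tested was 0.12. The calls rested on each of 3 libraries. Without day 4, day 5 or day 7 the limma fit, with 1 residual degree of freedom, called 0 genes (2606, 3210 and 4174 at an unadjusted p under 0.05), whereas 931 rose and 754 fell without day 6. With no filter on low genes, 0 of 20580 were called (6597 unadjusted). Centring each library on its autosomal median turned the split to 791 rising and 1077 falling.

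The 3 largest rises were in contractile genes. Acta1, the skeletal muscle alpha-actin (chromosome 8, 123891767 to 123894736 in mm10), had 2, 46, 663 and 1251 reads on days 4 to 7, and its log2 CPM was -4.90, -0.01, 4.24 and 5.40. Because day 4 held 2 reads, the change of 10.30 has a 95% counting interval from 8.44 to 13.34. Acta2, the smooth muscle alpha-actin (chromosome 19, 34241090 to 34255336), was at -3.09, -0.45, 5.32 and 6.97. Tagln, which encodes the actin-binding protein transgelin (chromosome 9, 45929628 to 45936058), was at 0.48, 4.86, 9.20 and 9.60. For these 3 genes most of the change had taken place by day 6, and day 7 added 1.16, 1.65 and 0.40. This timing rests on the day 6 library, where all 3 genes had shifts above the cutoff of 1. The shifts of Acta1 and Acta2 were 1.5 and 2.1, and Tagln on day 6 also lay more than 1 above its mean of days 5 and 7. Per day they rose by 3.51 ± 0.44, 3.59 ± 0.38 and 3.17 ± 0.46 (SE), with limma adjusted p-values of 0.026, 0.025 and 0.030.

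Gap junction and keratin genes followed. Gjb2, which encodes connexin 26, was at -4.31, -1.37, 2.51 and 4.44, with 3 reads on day 4, so its change of 8.76 has a counting interval from 7.21 to 11.03. Krt8, a keratin of simple epithelia (chromosome 15, 101996711 to 102004342), was at 2.96, 7.02, 9.02 and 11.07, and Krt7 was at 0.23, 4.22, 6.33 and 7.45. These keratins made more than 50% of their change between days 4 and 5. The streak regulator Mixl1 (chromosome 1, 180693043 to 180697034) was at -2.09, -0.84, 2.76 and 5.05, and Sept4, a septin, at -0.58, -0.14, 2.88 and 6.46. In Mixl1 and Sept4 the first step was the smallest. The list of the 10 largest rises was completed by 1700019G06Rik and Gm9747, which rose by 2.51 ± 0.26 and 2.46 ± 0.28 per day (limma adjusted p = 0.025 and 0.026).

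Of the 10 largest falls, Nr0b1 belonged to the naive pluripotency list and Dazl and Hormad1 to the germline list. Nr0b1 (chromosome X, 86191764 to 86195947), which encodes the nuclear receptor Dax1, had 4418, 211, 77 and 0 reads, so that on day 7 it was at least 733-fold lower than on day 4 against a floor of 3 reads. D14Ertd668e had 1953, 127, 21 and 0 reads and was at least 324-fold lower. Jam2, a junctional adhesion molecule (chromosome 16, 84774123 to 84825928), was at 5.60, 1.72, -0.28 and -3.89. Dazl, an RNA-binding protein of germ cells (chromosome 17, 50279394 to 50293599), was at 8.03, 4.68, 2.19 and -0.72, and Hormad1, a protein of the meiotic chromosome axis (chromosome 3, 95559677 to 95587671), at 7.39, 5.24, 0.70 and -1.43. Every step of these genes went down. The change of Jam2 rested on 2 reads on day 7 and has a counting interval of 7.64 to 12.54 in size. Tex19.2, Tuba3b, Mcf2, 4930502E18Rik and 1700029P11Rik completed the 10, with changes from -8.43 to -7.94, of which 1700029P11Rik and 4930502E18Rik rested on 2 and 3 reads on day 7. The limma adjusted p-values of the 10 were 0.024 except for Nr0b1 (0.028). At Day0, each of the 10 had been at 3.74 or above.

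**Figure D2:**
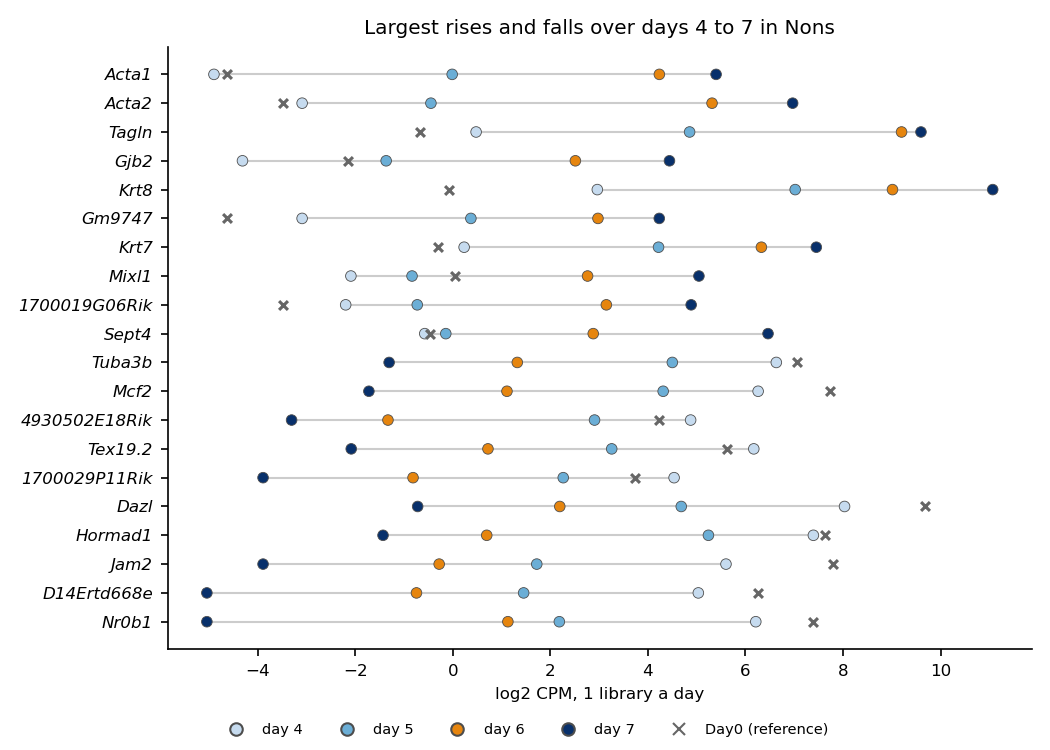
Log2 CPM (x axis) of the 10 largest rises and 10 largest falls among genes called and moving one way (y axis). Each point is 1 library, coloured by day, and crosses give Day0. For every gene the 4 days stand in order from left to right or right to left, as for Krt8 from 2.96 to 11.07, and Day0 lay at 3.74 or above for the genes that fell.

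A gene was given a shape where its 4 values spanned at least 1 log2 unit, which held for 6012 genes (45.4%). A rise or fall was called early, middle or late where more than 50% of it lay in the step from day 4 to 5, 5 to 6 or 6 to 7, and steady where no step held that much, provided no step went back by over 25% of the change. A peak or dip lay at least 1 beyond both day 4 and day 7. Rises were spread over the intervals, with 711 early, 699 middle, 706 steady and 307 late. Falls leaned to steady and late, with 252 early, 211 middle, 432 steady and 410 late. The remaining 1371 genes were irregular. From days 4, 5 and 7 alone, 968 rises were early, 1198 steady and 647 late, and 350 falls were early, 703 steady and 455 late.

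Transient changes were few outside day 6. On day 5, 82 genes peaked and 148 dipped, and 0 of each were pseudogenes or ribosomal protein genes. On day 6, 324 peaked and 359 dipped, but 91 of these peaks and 74 of these dips were processed pseudogenes or ribosomal protein genes, and 285 and 340 had a day 6 shift of at least 1. With day 6 left out, 186 of the 324 peaks and 276 of the 359 dips no longer spanned 1 log2 unit. Outside those classes B020018G12Rik was at -1.09, -1.29, 5.79 and -1.57, a day 6 shift of 7.22.

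Among early falls a wide range was seen in Epas1, which encodes the hypoxia-inducible factor HIF-2alpha, at 8.16, 4.64, 2.25 and 1.52, and Enox1, at 5.81, 2.59, 1.11 and -0.19. Both fell (limma adjusted p = 0.029 and 0.026). Late falls included Tdrd12, a germline tudor protein, at 5.59, 4.75, 2.49 and -0.89, and Grifin, a galectin-related protein, at 4.13, 3.90, 0.59 and -3.31. The late rises Cyp26a1, which degrades retinoic acid, at 1.02, 0.19, 3.37 and 6.62, and Pmp22, a myelin protein, at 0.37, 0.22, 2.17 and 5.66, were not called (limma adjusted p = 0.065 and 0.060). All 6 of these genes had the same shape without day 6. A day 5 dip was seen in Emp1, a membrane protein of epithelia, at 1.41, -1.54, 1.59 and 4.61. Phf19, a cofactor of Polycomb repressive complex 2, peaked on day 5 at 6.41 from 5.05 on day 4, and reached 2.23 on day 7.

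**Figure D3:**
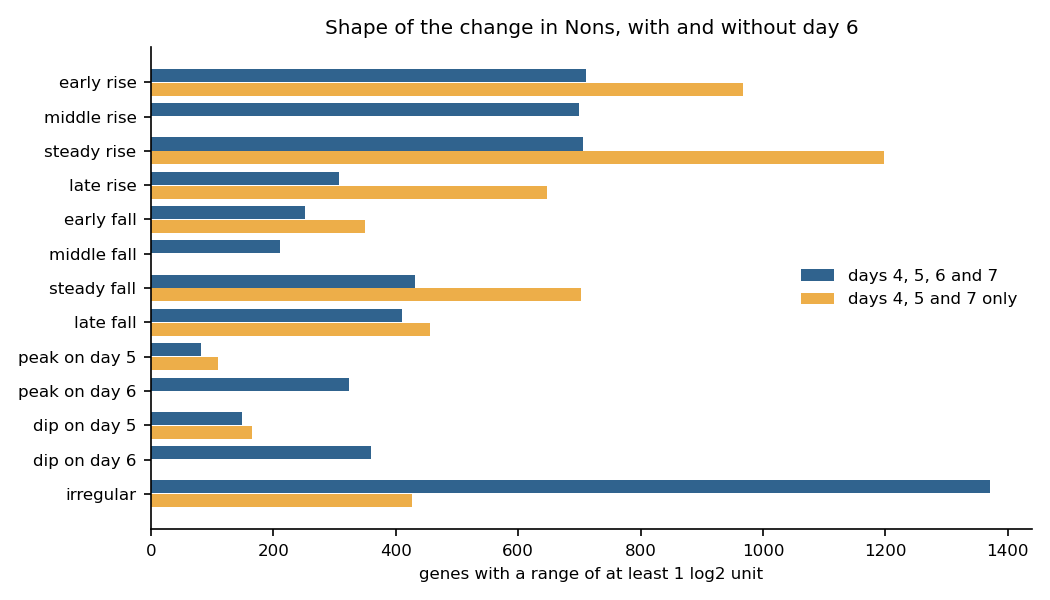
Number of genes (x axis) in each shape of change (y axis) among genes spanning at least 1 log2 unit, from all 4 days (blue) and from days 4, 5 and 7 alone (orange). Middle shapes and day 6 peaks and dips need day 6 and have no orange bar. Irregular genes numbered 1371 with day 6 and 427 without it.

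Genes were then read in lists by role, and each list is described against the share of all genes tested that rose (7.31%) or fell (4.56%) and the overall median change of 0.12. Of 16 naive pluripotency genes, 10 fell and 1 rose, with a median change of -3.31. The transcription factor Esrrb was at 6.60, 5.38, 4.05 and 3.01, Klf2 at 5.89, 4.30, 2.97 and 2.12, and Zfp42 at 6.72, 5.36, 4.46 and 3.97. Each of these 3 was lower at every step and fell (limma adjusted p = 0.024, 0.024 and 0.026). Tcl1, Nr5a2, Fgf4, Gbx2, Prdm14 and Dppa5a also fell. Of the 16 members 15 were already below Day0 on day 4, such as Esrrb (9.08 at Day0).

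Not every naive gene followed. Nanog (chromosome 6, 122707489 to 122714633), a homeobox factor of pluripotent and also of gastrulating epiblast cells, was at 10.47 at Day0 and then at 6.43, 6.79, 7.00 and 7.94, and it rose by 0.47 ± 0.09 per day (limma adjusted p = 0.048). Klf5 was at 5.05, 4.38, 5.28 and 5.28, and Tbx3 at 4.25, 2.39, 1.71 and 3.94. Dppa3 was at 3.12, 5.05, 3.26 and 2.58, highest on day 5. Of 8 core pluripotency genes 3 fell and 0 rose. Sox2 was at 7.78, 7.21, 6.09 and 3.69 and fell (limma adjusted p = 0.032), with Dppa2 and Dppa4, whereas Pou5f1, its partner, was at 9.94, 10.12, 10.54 and 9.64 and Lin28a at 9.05, 9.40, 9.30 and 8.71.

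Formative genes were mixed. Of 10 members 3 fell (Otx2, Foxd3 and Dnmt3a), 0 rose and the median change was -1.26. Otx2 was at 7.27, 6.44, 6.33 and 5.55 and fell (limma adjusted p = 0.036), and Foxd3 was at 5.56, 4.31, 3.90 and 1.06 and fell too (0.039). The growth factor gene Fgf5 was at -4.48 at Day0 and at 5.42, 6.48, 6.67 and 6.47 in Nons, so that its gain from Day0 preceded day 4.

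Genes of DNA methylation were among those that fell. Dnmt3l, the cofactor of the de novo methyltransferases (chromosome 10, 78041947 to 78063622), was at 10.24, 9.07, 7.19 and 5.21 and fell (limma adjusted p = 0.024). Dnmt3a was at 9.55, 8.69, 7.79 and 6.40 and Tet1, a dioxygenase of methylcytosine, at 8.62, 8.09, 7.23 and 6.10, and both fell (0.024 and 0.025). Dnmt3b was at 10.09, 10.14, 9.59 and 8.38 (0.082) and Dnmt1, the maintenance enzyme, at 8.76, 8.50, 8.12 and 7.83 (0.053). In all, 3 of 9 members fell and 0 rose. Tdg, with a day 6 value of 3.35 between 6.58 and 6.08, had a day 6 shift of -2.98.

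Germline genes fell in most cases. Of 15 tested 12 fell and 0 rose, with a median change of -4.94, and Tex101 was below the filter with 236, 68, 17 and 10 reads. Besides Dazl and Hormad1, the piRNA pathway genes Asz1 and Piwil2 fell, with values of 3.09, 1.79, -0.55 and -3.89 and of 6.30, 4.32, 2.64 and 0.72. Slc25a31, a mitochondrial ADP/ATP carrier of testis, was at 5.29, 3.96, 1.90 and -0.98. The members that did not pass were Brdt (-3.50 over the 3 steps), Sycp3 (-1.47) and Tdrkh (0.69). Tex19.1, expressed in germ cells and early embryos, was at 8.99, 6.58, 4.43 and 3.74 and fell (limma adjusted p = 0.026). The germline genes Ddx4, Mael, Stk31, Sycp1, Taf7l and Rpl10l fell as well.

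Promoters of these genes are shown because the members moved together. RefSeq promoters (GRCm38.p6, 250 bases before to 50 after the start) were matched for 15 of 16 germline genes, and 9 of them held the E-box CACGTG, in capitals below, against 8.09% of 27025 genes with a promoter and 12.1% of the tested genes matched. The motif reads the same on both strands. Genes with it fell in 7 of 9 tested cases and genes without it in 4 of 5, and the letters were thus found among genes that fell and genes that did not.
Hormad1, chr3:95559427-95559726, plus strand: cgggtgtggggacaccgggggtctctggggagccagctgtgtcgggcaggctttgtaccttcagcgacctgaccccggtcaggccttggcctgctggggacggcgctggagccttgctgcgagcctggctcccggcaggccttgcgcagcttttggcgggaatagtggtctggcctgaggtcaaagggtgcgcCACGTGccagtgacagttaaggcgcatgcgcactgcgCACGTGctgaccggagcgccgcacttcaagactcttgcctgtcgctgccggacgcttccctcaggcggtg
Slc25a31, chr3:40708621-40708920, plus strand: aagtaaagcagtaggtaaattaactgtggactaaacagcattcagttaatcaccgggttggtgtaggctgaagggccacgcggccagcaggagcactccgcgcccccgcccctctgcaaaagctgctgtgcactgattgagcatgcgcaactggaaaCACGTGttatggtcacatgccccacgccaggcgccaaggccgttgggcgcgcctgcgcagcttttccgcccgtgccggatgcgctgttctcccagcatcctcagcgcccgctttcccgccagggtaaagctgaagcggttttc

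The primitive streak is the site where epiblast cells enter gastrulation. Of 9 tested regulators of the streak 5 rose and 0 fell, with a median change of 3.73. T, which encodes Brachyury (chromosome 17, 8434423 to 8442496), was at 0.97, 2.62, 5.03 and 7.49 and rose by 2.20 ± 0.13 per day (limma adjusted p = 0.024). Its steps were of 1.65, 2.42 and 2.46. The ligand genes Fgf8 and Wnt3 were at 2.50, 3.74, 5.42 and 6.86 and at 2.83, 3.52, 4.37 and 5.54, and Gsc, a homeobox gene of the organizer, was at -1.09, -0.37, 1.05 and 2.64. All 3 rose (limma adjusted p = 0.024, 0.026 and 0.033). Lhx1 was at -1.99, -0.89, -0.01 and 4.76, with 4.77 of its change in the last step (0.056), and Eomes was at 5.25, 4.70, 6.16 and 6.79 (0.105). Mesp2, of the segmenting mesoderm, went the other way, at 2.17, 0.55, -0.82 and 1.06, and was not called (limma adjusted p = 0.485). Mesp1, a gene of nascent mesoderm, was below the filter with 15, 3, 24 and 295 reads, and Tbx6 and Msgn1 had at most 24 reads on any day.

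Signalling genes around the streak moved unequally. The beta-catenin target Sp5 was at -1.37, 0.37, 3.20 and 5.12 and rose (limma adjusted p = 0.024), while Lef1, a partner of beta-catenin, was at 7.15, 6.22, 4.80 and 2.98 and fell (0.024). Axin2 was at 4.31, 3.93, 4.60 and 5.07. In the Nodal pathway the inhibitor gene Lefty2 was at 5.40, 6.16, 6.30 and 6.93 and rose (0.037), and Nodal itself was at 6.22, 6.49, 6.48 and 6.73. Of the BMP targets, Id1 was at 8.13, 7.04, 6.84 and 5.57 and Id3 at 6.98, 6.61, 5.80 and 4.28, and both fell (0.030 and 0.032), whereas Msx2 was at 0.48, 2.12, 2.39 and 4.20 and rose (0.035). Of 10 ERK feedback genes, Spred1 rose and Etv5 fell, and Dusp6, a phosphatase of ERK, was at 0.43 at Day0 and at 6.29, 7.14, 8.23 and 7.33.

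Actin and smooth muscle genes rose in 8 of 15 cases and fell in 0, with a median change of 3.64. Tpm1 and Tpm2, which encode tropomyosins, were at 6.46, 8.37, 10.49 and 11.21 and at 2.53, 3.98, 6.18 and 7.05, and both rose (limma adjusted p = 0.024 each). Cald1, Cnn2 and Myh9 rose by 3.76, 3.64 and 1.80 over the 3 steps. The list's median was 4.87, 5.29, 7.72 and 8.22, so that its main step lay between days 5 and 6, and its median day 6 shift was 0.83 against 0.11 for all genes. Cnn1 and Myl9 were highest on day 6, at 6.36 and 5.44, and not called (0.063 and 0.096). Srf, their transcriptional regulator, was at 6.05, 6.43, 7.14 and 6.41. Myh11, a myosin of mature smooth muscle, had 97, 11, 36 and 20 reads, and Actg2 at most 5.

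The binding motif of Srf, the CArG box, was looked for in the same promoter windows. Only exact matches to CCWWWWWWGG, with W for A or T, were counted. RefSeq promoters were matched for 14 of 17 genes of the list and 5 of these held it, against 1.81% of all genes with a promoter and 1.52% of the tested genes matched. Tagln had no entry. Of the 5 with an exact match 2 rose (Acta1 and Cnn2, shown with the box in capitals), and of the 9 without it 5 rose, among them Acta2. The Acta2 window held ccctatatgg and ccttgtttgg, each differing from the pattern by a base, so the split depends on the exact pattern.
Acta1, chr8:123894726-123895025, minus strand: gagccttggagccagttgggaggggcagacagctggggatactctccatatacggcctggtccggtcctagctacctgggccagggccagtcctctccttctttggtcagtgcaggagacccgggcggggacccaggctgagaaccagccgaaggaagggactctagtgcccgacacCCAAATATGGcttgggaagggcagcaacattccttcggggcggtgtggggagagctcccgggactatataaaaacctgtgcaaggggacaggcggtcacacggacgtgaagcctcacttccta
Cnn2, chr10:79988350-79988649, plus strand: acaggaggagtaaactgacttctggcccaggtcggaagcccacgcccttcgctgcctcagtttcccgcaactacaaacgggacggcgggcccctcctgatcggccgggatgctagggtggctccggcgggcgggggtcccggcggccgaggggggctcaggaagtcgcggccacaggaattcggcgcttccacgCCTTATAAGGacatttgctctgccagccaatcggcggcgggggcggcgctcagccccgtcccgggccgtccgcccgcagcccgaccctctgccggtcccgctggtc

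Of 9 tested genes of trophoblast and simple epithelium 4 rose, all of them keratins, and 0 fell. Krt18, the partner of Krt8, was at 3.75, 6.34, 8.82 and 10.38 and Krt19 at 2.19, 3.16, 6.85 and 8.36 (limma adjusted p = 0.024 and 0.026). The trophoblast regulators in the list did not pass, with Cdx2 at -0.20, 2.11, 1.11 and 2.48 and Gata3 at 2.14, 2.10, 2.35 and 2.36, and the placental genes Tpbpa and Prl3d1 had 0 reads in the 4 libraries. Of 9 epithelial genes 1 rose and 0 fell. The tight junction gene Cldn4 rose (0.031), and Cldn7 was at 0.96, 5.16, 6.74 and 6.65 (0.068), with most of its change before day 5. Cdh1, which encodes E-cadherin, was at 8.86, 9.01, 9.62 and 9.46.

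Of 15 extracellular matrix genes 5 rose and 0 fell. By size 9 were at least 1 higher on day 7 than on day 4 and 2 at least 1 lower, Dcn (-3.19) and Ctgf (-1.33). The collagen gene Col1a1 (chromosome 11, 94936224 to 94953042) was at 0.06, 0.63, 4.27 and 6.28, Col4a2 of basement membranes at 3.69, 3.49, 5.28 and 7.21, and the matricellular gene Thbs1 at 3.92, 4.84, 7.88 and 8.54. These rose (limma adjusted p = 0.0270, 0.0498 and 0.0272), and little of their change came before day 5. Fn1, fibronectin, was at 8.87, 7.13, 7.21 and 9.66, a dip on days 5 and 6 with no net call. Of 10 mesenchymal genes 4 were below the filter, and of the 6 tested 0 rose and 1 fell, Zeb1, at 3.42, 2.21, 1.42 and 0.69 (0.034). By size 3 of the 6 were at least 1 higher on day 7 than on day 4 and 1 at least 1 lower. Their median change was 0.77, and their summed CPM went from 139 on day 4 to 276 on day 7.

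**Figure D4:**
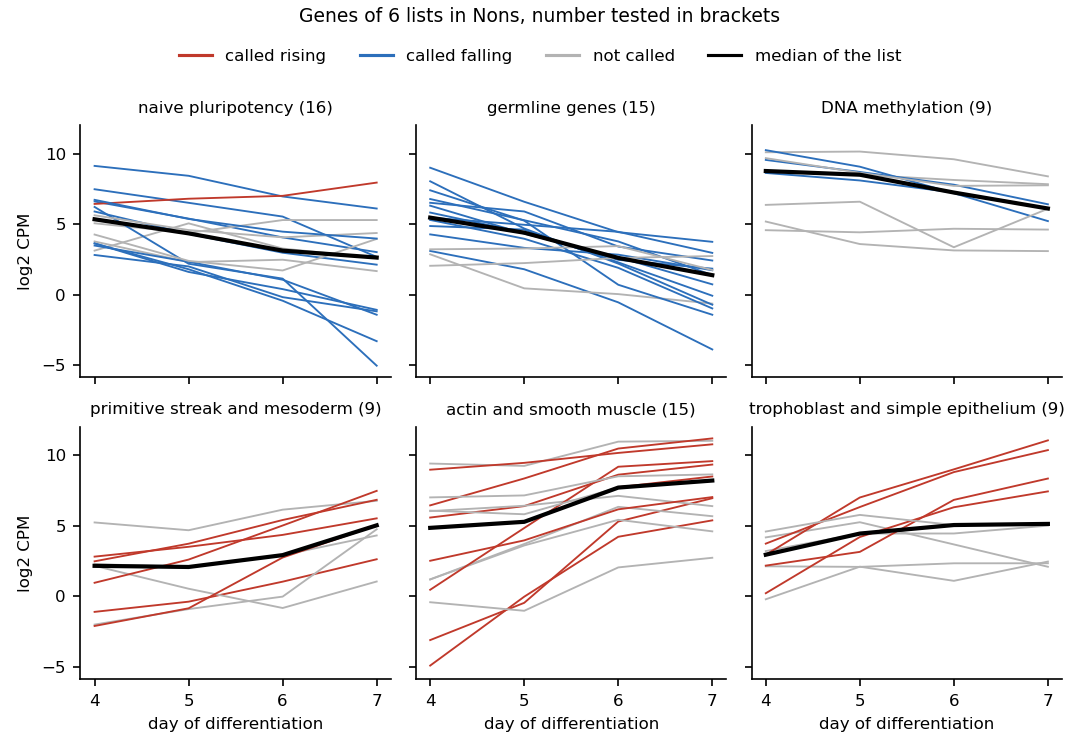
Log2 CPM (y axis) by day (x axis) of the tested genes of 6 lists in Nons. Thin lines are genes, red where called as rising, blue where called as falling and grey otherwise, and the black line is the list's median, which went from 5.34 to 2.62 for naive pluripotency genes and from 4.87 to 8.22 for actin and smooth muscle genes.

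Markers of later fates were mostly below the filter. Of 12 neural genes 4 passed the filter and 0 were called by limma (2 unadjusted), and Sox1, an early neuroectoderm gene, had 61, 68, 16 and 4 reads. Nes, an intermediate filament gene of neural progenitors, was at 4.97, 6.01, 7.97 and 7.32 (limma adjusted p = 0.082), and the summed CPM of the tested neural genes went from 71.4 on day 4 to 227 on day 7. Of 11 endoderm genes 4 were tested, of which Dab2 rose, at 3.13, 4.23, 4.38 and 5.63 (limma adjusted p = 0.035), and Sox17 was at 0.69, 1.35, 2.09 and 1.94. None of the 7 below the filter had more reads on day 7 than on day 4. Among these 7, Sox7 had 203, 13, 17 and 15 reads and Hnf4a 107, 3, 4 and 0. Of 39 Hox genes 2 passed the filter and 0 were called (0 unadjusted). Of 13 cardiac and lateral mesoderm genes 5 were tested and 0 called by limma (2 unadjusted). All 5 were at least 1 higher on day 7 than on day 4, against 21.7% of all genes tested. Among them Gata4 was at 0.42, 0.14, 1.27 and 3.65 (limma adjusted p = 0.091) and Hand1 at 3.06, 3.14, 3.89 and 4.83 (0.054). The filter took the mean of these same libraries, so a low gene could pass it by being high on day 7. Below it Actc1 had 1, 27, 94 and 222 reads, but Tnnt2 had 76, 24, 2 and 17 and Mef2c 17, 22, 29 and 4. Of 7 tested vessel and blood genes Flt1, a VEGF receptor, rose, at 1.33, 3.33, 5.74 and 7.04 (0.024), and Pecam1, which mESCs also express, fell, from 5.39 to 1.22 (0.035).

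The 2-cell-like genes, expressed by a rare mESC state, were high on the middle days. Zscan4c was at -0.34, 2.48, 2.25 and -0.19, Zscan4d at -0.90, 2.98, 2.31 and -0.57, Tcstv1 at -1.25, 1.51, 1.11 and -0.43 and Zfp352 at -0.61, 0.96, 1.22 and -0.57. None of the 4 was called by a straight line (limma adjusted p from 0.795 to 0.980; unadjusted p of each above 0.05). Zscan4f had 3, 51, 33 and 1 reads and Tcstv3 had 3, 31, 24 and 14. The Zscan4 genes are near-identical copies, so reads may be divided among them, and no value is certain for a single copy.

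Metabolic and growth genes showed a few large moves. The glucose transporter genes Slc2a3 (chromosome 6, 122727809 to 122801640) and Slc2a1 were at 7.51, 9.03, 10.33 and 12.22 and at 8.88, 9.46, 10.70 and 11.52, and both rose (limma adjusted p = 0.024 and 0.026). They were the 2 members of 15 in the glycolysis list that were called. Tpi1 was at 7.94, 9.40, 9.61 and 10.05 (0.060), and Pfkp at 8.89, 6.42, 6.25 and 6.48. Eno1, Gapdh, Pgam1 and Pgk1 had day 6 shifts of -3.59, -2.09, -1.83 and -4.99, so their slopes cannot be read. In the cell cycle list Cdkn1b, an inhibitor of cyclin-dependent kinases, was at 2.74, 3.82, 5.70 and 5.67 and rose (0.039), while Mycn and Ccne1 fell (0.042 and 0.034) and Mki67, a marker of cycling cells, was at 8.25, 8.39, 8.34 and 8.55. Among imprinted genes Igf2 was at 2.30, 3.92, 4.00 and 6.28 and rose (0.037), H19 at 6.85, 10.53, 10.86 and 12.11 (0.053), and Dlk1 at 4.05, 3.07, 2.10 and 0.69 and fell (0.026).

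Mitochondrially encoded genes were lower on day 7 than on day 4 in all 11 tested, with changes from -1.71 to -0.74, against a median of 0.12 over all genes tested. By limma 0 were called after adjustment (2 unadjusted). They took 1.50%, 1.11%, 0.538% and 0.717% of Nons reads, lowest on day 6. The 77 ribosomal protein genes had a median change of 0.41 from day 4 to day 7 and 0 calls by limma (2 unadjusted), with their day 6 values as described above.

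The X chromosome moved against the autosomes. The X-linked median lay above the autosomal one by 0.49 at Day0 and differed from it by 0.41, 0.13, -0.08 and -0.12 in Nons on days 4 to 7. The change of this difference over the 3 steps was -0.54. The hairpin medians moved in the same direction, at 0.37, 0.28, 0.07 and -0.05 with Smarcc1.6 and at 0.40, 0.30, -0.08 and -0.10 with Smarcc1.7. These medians join both alleles, whereas the paper reports failed silencing with Smarcc1 knockdown from allele-specific reads. In the fit with day as a block described below, the slope differed between Nons and the hairpins for 52 of 497 X-linked genes. Over all 13234 genes it differed for 573. With 4 values an exact permutation of the days cannot give a two-sided p below 0.0833, which is what the monotone order in Nons gave. Of 20 chromosomes X had the lowest median change, at -0.30, followed by chromosome 5 at 0.03. Of X-linked genes 64 fell (12.9%) and 24 rose (4.83%), against 4.24% and 7.42% of autosomal genes. On the X 59.2% of genes were lower on day 7 than on day 4, against 39.2% (chromosome 12) to 48.8% (chromosome 5) on the autosomes. Late falls made up 8.65% of X-linked and 2.88% of autosomal genes.

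Xist (chromosome X, 103460375 to 103483217) was at 2.83 at Day0 and 7.02, 9.05, 10.09 and 10.03 in Nons. Most of the difference came early, with a step of 2.03 from day 4 to 5, 1.04 from day 5 to 6 and -0.06 thereafter. By a straight line it changed by 1.00 ± 0.23 per day (limma adjusted p = 0.061) and so was not called. In the fit with day as a block described below, the Xist slope was lower in Nons than with the hairpins (limma adjusted p = 0.00545, and 0.0169 without day 6). Its antisense gene Tsix (103431517 to 103484957) was at 4.17, 5.41, 6.65 and 6.26 (0.075). The 2 genes overlap and the strand setting of the counting was not stated, so their reads cannot be told apart. Among 23 regulators of X inactivation Pcgf5, a Polycomb subunit, rose, at 3.44, 4.84, 5.18 and 6.06 (0.030), and the Polycomb genes Jarid2 and Suz12 fell, at 9.58, 8.58, 8.08 and 7.25 and at 8.93, 8.45, 7.96 and 7.54 (0.025 and 0.030). Rlim, an X-linked activator of Xist, was at 8.31, 8.74, 8.82 and 8.61.

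X-linked genes differed widely among themselves. Besides Nr0b1, Mcf2 and 4930502E18Rik, the largest X-linked falls were in Rhox1, a homeobox gene, at 4.10, 2.18, -0.33 and -3.31, and Cybb, a subunit of NADPH oxidase, at 4.08, 2.49, 0.25 and -1.72 (limma adjusted p = 0.024 each). The largest X-linked rises were in the basement membrane collagen Col4a5, at -2.44, -1.29, 1.75 and 4.26, Rhox6, at 2.34, 5.19, 6.48 and 7.32, and Nxf7, at 0.59, 2.18, 4.61 and 5.21 (0.025, 0.029 and 0.026). The 7 tested genes known to escape X inactivation were all lower on day 7 than on day 4, with changes from -1.38 to -0.42, and 1 of them fell, 2610029G23Rik, at 7.31, 7.25, 6.64 and 5.93 (0.046). Most X-linked genes tested were lower on day 7 as well. Kdm6a, a histone demethylase, was at 7.53, 7.40, 7.30 and 6.66 and Kdm5c at 8.65, 8.31, 8.21 and 7.70.

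**Figure D5:**
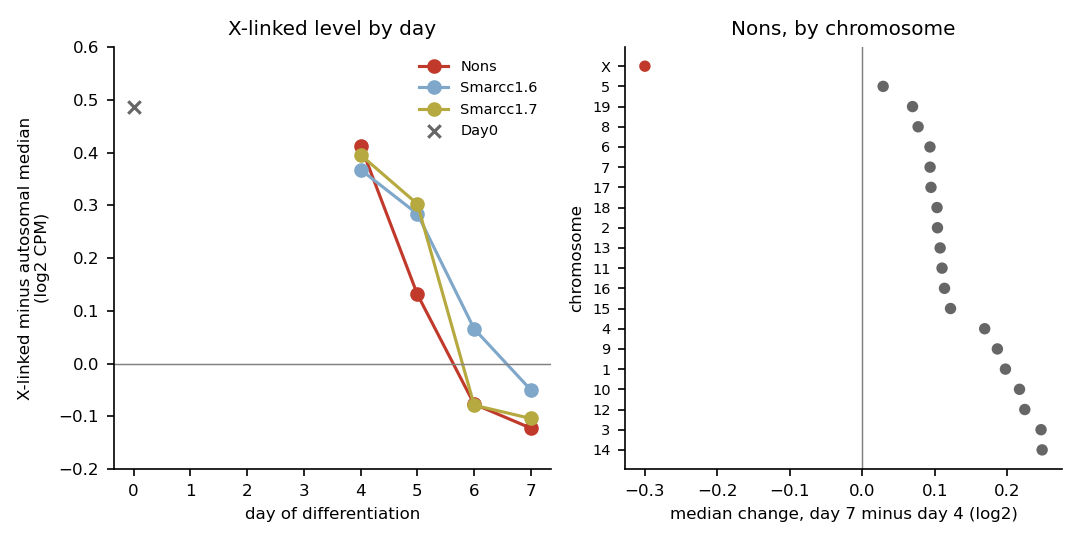
Left, the difference of the X-linked from the autosomal median log2 CPM (y axis) by day (x axis) in Nons, in both hairpin series and at Day0, where Nons went from 0.41 on day 4 to -0.12 on day 7. Right, the median change from day 4 to day 7 in Nons (x axis) for each chromosome (y axis), with X at -0.30 and the 19 autosomes above 0.

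The hairpin series gave the same directions for most of these genes. Of the 1571 genes called in Nons, 1562 (99.4%) moved in the same direction from day 4 to day 7 with both hairpins, against 80.2% of all genes tested. In a slope fit over the 8 hairpin libraries, with 3957 genes rising (29.9%) and 2697 falling (20.4%), 1512 of the 1571 (96.2%) were called in the same direction. The difference in slope between Nons and the hairpins, tested as an interaction in limma, was past the threshold for 0 genes (641 at an unadjusted p under 0.05). That fit did not remove what the 3 arms shared on a day. With day as a block over the arms, a fit added after the data were seen, the slope was higher in Nons for 218 genes (1.65%) and lower for 355 (2.68%), 573 in all, and 311 were called without day 6. Of these 573 genes 140 were among the 1571 called in Nons and 0 were processed pseudogenes or ribosomal protein genes. Nons was 1 series against 2, so that the hairpin and the culture cannot be told apart. Among streak genes T changed by 6.52 in Nons and by 2.91 and 1.02 with Smarcc1.6 and Smarcc1.7, and Mixl1 by 7.14, 3.65 and -0.28. The naive pluripotency gene Nanog changed by 1.51, -0.82 and -0.11. For T, Mixl1 and Nanog the interaction adjusted p-values in limma were 0.852, 0.905 and 0.977 without the block. They were 0.0122, 0.0381 and 0.0130 with it, and 0.0256, 0.121 and 0.0434 with the block but without day 6. The streak list was divided in the fit with the block. Eomes, Evx1 and Lhx1 were also past the threshold, but Fgf8 (limma adjusted p = 0.16), Gsc (0.11), Wnt3 (0.82) and Mesp2 (0.46) were not.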

How the data were processed

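The deposited values were log2 CPM per gene, made by the authors with Seqmonk from paired-end reads aligned to mm10 with FVB/NJ and CAST/EiJ differences masked, both alleles together. The submitters' processing notes name TopHat2 2.0.12 and bcl2fastq, and the methods name tophat or hisat2 without saying which library had which. The annotation release and strand setting are not given in the sources used here. The file holds 0.9 reads in place of 0. Whole reads were recovered from the steps between low values (under 100 reads, tolerance 0.01), of which 100% came out whole. No tool for counts was used on them, because each day had 1 library. Intervals and floors cover counting error only, since reads carried no molecular identifiers.

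A straight line over day was fitted with limma 3.58.1 (lmFit, eBayes with trend) in R 4.3.3 to the genes averaging a log2 CPM of 0 or above, with Benjamini-Hochberg adjustment over 13234 genes and 2 residual degrees of freedom. Classes and positions came from GENCODE M21, which matched 98.4% of the genes tested, and promoters from RefSeq on GRCm38.p6. The fit was also run on simulated data over these 13234 genes, with a biological coefficient of variation set to 0.1. It recovered 197 of 200 genes with a slope of 0.5 and 200 of 200 with a slope of 1. In these runs 11 and 12 unchanged genes were called. Recovery at another spread, or with a day 6 shift present, was not tested.

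The members and gene lists were chosen with earlier results of these data known. Genes were named as the 10 largest rises and falls among called genes moving one way, up to 4 largest changes per list, the widest ranges per shape, the largest day 6 shifts and the largest X-linked changes. Other list members were named for their role after their values were seen. Alternatives were another filter, centring, denominator, pseudocount, spread estimate, depth and the omission of each day. For the difference between Nons and the hairpins, a fit with day as a block over the arms was added after the data were seen. Allele-specific values were not analysed here.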

Additional observations from a re-analysis of the deposited data

Results flagged for a closer look

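Among 384 named genes and list members, 7 moved by at least 1 log2 unit from day 4 to day 7 in Nons and the opposite way with both hairpins. Kdr, a VEGF receptor, changed by 1.32 in Nons and by -3.25 and -3.97 with Smarcc1.6 and Smarcc1.7. Evx1, a streak homeobox gene, changed by 2.03 against -1.12 and -1.57, and Nanog by 1.51 against -0.82 and -0.11. Eomes changed by 1.53 against -0.10 and -0.64, and Gata6, an endoderm regulator, by 1.12 against -0.37 and -0.14. Sycp3, a meiotic gene, changed by -1.47 against 0.32 and 0.88, and Sox3, an X-linked neural gene, by -1.59 against 0.18 and 0.95. The interaction in limma was past the threshold for 0 of these 7, with adjusted p-values from 0.952 to 1.00 and unadjusted ones from 0.0158 for Evx1 to 0.482 for Gata6. With day as a block over the arms, added after the data were seen, 6 of the 7 were past it, with adjusted p-values from 0.00373 for Sycp3 to 0.0130 for Nanog, and Gata6 was not (0.607). Over all genes tested 4.33% were past it. The 7 were picked for opposite directions in these same libraries, so passing this fit is no separate evidence of a difference. Without day 6 as well, the same 6 ranged from 0.00281 for Kdr to 0.0434 for Nanog. Of all 4403 genes that moved by at least 1 in Nons, 58 (1.32%) moved the other way with both hairpins by at least 0.1. The 384 also include genes that moved by less than 1, so 7 of 384 cannot be set against that share.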

How the results depend on the processing

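Each day had 1 library, so spread between cultures is unknown and depth limits low genes. The slope calls were the least stable result. With 1 day left out the counts ran from 0 rising and 0 falling (without day 4, 5 or 7) to 931 and 754 (without day 6), and from 0 to 29 rising and 0 to 82 falling on the X, with the smallest adjusted p at 0.0874, 0.0504 and 0.0936 for days 4, 5 and 7. With no filter 0 genes rose and 0 fell, on the X also 0, and the X-minus-autosome change was -0.76. With all 12 libraries sharing the spread, 2346 rose and 1484 fell (54 and 123 on the X). Centring gave 791 and 1077. No slope call in Nons changed direction under any of these settings. The difference in slope between Nons and the hairpins was called for 0 genes as planned and without day 6, but for 573 with day as a block over the arms and for 311 with that block and without day 6.

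With a range of at least 2, rises were 341 early, 276 middle, 341 steady and 99 late, falls were 90, 102, 230 and 129, and there were 134 peaks and 174 dips. With over 0.6 of the change required in 1 step, rises were 442 early, 424 middle, 1365 steady and 192 late, and falls 161, 103, 789 and 252. Days 4, 5 and 7 alone gave 1198 steady and 647 late rises, 703 steady falls, 109 peaks and 165 dips. A day 6 threshold of 2 left 136 genes higher and 195 lower, and a filter at 2 left 258 higher. Without day 6, Rps27 and Rpl17 had slopes of 0.44 and 0.34 per day and were called as rising (limma adjusted p = 0.0427 and 0.0413), since the fit then lacked their day 6 value, and their slopes over the 4 omissions ran from -4.50 to 0.44 and from -2.42 to 0.34. Of 126 named genes refitted under each setting, 1245 values kept their side of the threshold, 306 lost and 44 gained a call.

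Replicates could not be paired because every arm and day had 1 library with the same replicate number. Among the slope fits, arms were matched by day only in the fit with day as a block, which was added after the data were seen.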
